A study of Mus musculus with 17 samples.

Results

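The genes described here encode enzymes that make, recycle and balance the purine and pyrimidine nucleotides, together with the folate enzymes that feed them, in 5 progenitor fractions of adult mouse bone marrow. The list held 32 genes. A member was measured by the probe sets annotated with its symbol alone, 1 per gene, taken as the probe set with the highest mean over the 17 arrays. By this rule 31 members were found among 18193 genes, and Impdh2 was not analysed here. Mean intensities of the 31 ran from 115 (Ada) to 4161 (Nme2), and all 31 were in the upper part of all genes by mean level, from percentile 71.2 upward. Signals of different probe sets are not on a common scale, so levels of members were compared between fractions and not with each other. Ranks of brightness and sums over lists of genes do use intensities across probe sets. They are rough, and such sums lean most on the brightest probe sets.

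The fractions were sorted from Lin- marrow of mice aged 10 to 14 weeks, and no strain, genotype or treatment is named in the labels. CLP cells were gated Sca1lowKitlowIL7r+Flk2+ and are common lymphoid progenitors (3 arrays). The other fractions were Sca1-Kit+. Of these, preGM (granulocyte and monocyte potential, 3 arrays), preMegE (shared precursor of megakaryocytes and red cells, 5 arrays) and preCFUE (early erythroid, 3 arrays) were also Itga2b-FcgRlow and were gated Slamf1-Englow, Slamf1+Englow and Slamf1+Enghigh, while MkP (megakaryocyte progenitors, 3 arrays) was gated Itga2b+Slamf1+. Of the short names, preMegE stands in the design text and the others are the usual ones for these gates. The labels leave unsaid whether each array had its own mice, so p-values cover array-to-array spread that may be technical. In a sorted population, fewer cells of a type and less RNA per cell cannot be told apart.

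Purine synthesis builds the base on a ribose phosphate, PRPP, in a chain from Ppat to Atic that ends in IMP, which is then turned into AMP or GMP. Pyrimidine synthesis runs through Cad, Dhodh and Umps to UMP, and CTP synthases make CTP. Folate carries single-carbon units, taken from serine by the Shmt enzymes and moved by the Mthfd enzymes, that both purines and thymidylate need. Salvage enzymes such as Hprt, Aprt, Dck and Tk1 return bases and nucleosides to the pool. Dividing marrow progenitors depend on these routes, folate shortage is known to impair red cell formation, and loss of Ada or Pnp is known to harm lymphocytes.

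Values are RMA intensities, given per array or as mean ± SD (n = 5 for preMegE, n = 3 for each other fraction). Fold changes are differences of log2(intensity + 16) ± SE, which understate changes of dim genes. Adjusted p-values come from limma with Benjamini-Hochberg adjustment over all 18193 genes, and a gene passed the test at an adjusted p under 0.05. Where arrays of different fractions are said not to overlap, this describes the values and is no test. The share of all genes without overlap was not counted, and so few arrays can separate by chance. Pf4, of platelet granules, was 6431 ± 316 in MkP and at most 50.9 elsewhere on average. Mpo, of granulocyte granules, was 7503 ± 923 in preGM, Klf1, an erythroid regulator, was 2917 ± 209 in preCFUE, and Il7r was 1752 ± 553 in CLP. Each is 1 gene of a longer list. Summed per array, 5 megakaryocyte markers were 11000 to 11990 in MkP (111 to 673 elsewhere). The 5 granulocyte and monocyte markers were 16460 to 17520 in preGM (145 to 1351 elsewhere). The 7 erythroid markers were 13720 to 14790 in preCFUE and 7153 to 10880 in preMegE. Between these fractions 2 of the 7 rose in preCFUE and 5 did not pass. The 6 lymphoid markers were 11060 to 16130 in CLP and 2194 to 3398 in preGM. Over the arrays, summed intensities ran from 72.4 to 107 for 6 macrophage, 29.3 to 192 for 3 mature B cell and 90.03 to 192 for 7 endothelial and stromal markers. The 6 neutrophil markers summed to 100.5 to 1541 in preMegE, 222 to 1531 in preGM and 124 to 1396 in MkP. Their sums were 211 to 393 in preCFUE and 88.3 to 215 in CLP. The 3 mast cell markers summed to 211 to 321 in preGM, 170 to 246.5 in preMegE and 52.0 to 76.9 in the other fractions. The 7 T and NK markers summed to 150.3 to 179 in preCFUE and 373 to 676 in the other fractions. The part of these markers in the results was not tested. CLP replicate 2 correlated better with preGM (0.961) than with the other CLP arrays (0.949). It was the highest CLP array for 25 of the 31 members, and for 68.9% of genes at least as bright as the dimmest member. CLP replicate 2 also had the lowest log2 ratio of 3-prime to 5-prime Gapdh signal, a gauge of RNA length, in CLP (3.00, against 5.12 and 4.08). The same ratio averaged 3.49 ± 0.62 for preCFUE, 3.85 ± 0.41 for MkP, 3.58 ± 0.56 for preMegE and 3.27 ± 0.62 for preGM. Within fractions it ran against most members, with a median correlation of -0.60 over the 17 arrays, beside -0.45 for the 5233 genes at least as bright as the dimmest member and 0.038 for all genes.

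Upstream sequence is shown for 5 members, since the letters CACGTG, the E-box that Myc with Max is known to bind, are often looked for in nucleotide synthesis genes. RefSeq promoter windows (build GRCm38.p6) were matched by symbol for 29 of the 31 members, all but Pfas and Dhodh, and the 250 bases before each annotated start were searched. The motif reads the same on both strands. It was found for 4 of the 29 members (13.8%), beside 6.86% of 27025 genes. Of matched members, it was found for 2 of the 13 that rose in preCFUE over preMegE and 2 of the 16 that did not pass. The windows lie at chr5:76951052-76951301, plus strand (Paics), chr1:71556906-71557155, plus strand (Atic), chr1:93801935-93802184, minus strand (Dtymk), chr11:93968273-93968522, minus strand (Nme1) and chr12:76254982-76255231, plus strand (Mthfd1). The first 4 hold the motif, in capitals below, and Mthfd1 is the member with the largest rise in preCFUE and has no match in its window. The motif begins 203 bases before the start in Paics, 7 in Atic, 148 in Dtymk and 18 in Nme1. A match is only a match of letters.
Paics: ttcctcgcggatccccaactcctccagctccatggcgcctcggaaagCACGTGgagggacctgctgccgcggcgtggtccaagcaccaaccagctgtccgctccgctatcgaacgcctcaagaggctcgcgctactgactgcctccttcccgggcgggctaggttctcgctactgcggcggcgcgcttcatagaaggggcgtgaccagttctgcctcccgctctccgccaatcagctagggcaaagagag
Atic: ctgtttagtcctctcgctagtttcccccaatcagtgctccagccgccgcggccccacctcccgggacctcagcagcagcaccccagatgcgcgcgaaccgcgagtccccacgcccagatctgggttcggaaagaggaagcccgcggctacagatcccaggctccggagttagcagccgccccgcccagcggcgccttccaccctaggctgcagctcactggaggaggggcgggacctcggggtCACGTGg
Dtymk: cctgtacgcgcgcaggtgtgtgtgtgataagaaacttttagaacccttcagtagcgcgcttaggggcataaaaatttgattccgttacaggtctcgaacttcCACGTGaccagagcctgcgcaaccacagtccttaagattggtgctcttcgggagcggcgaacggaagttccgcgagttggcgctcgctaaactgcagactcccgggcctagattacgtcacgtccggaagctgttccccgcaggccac
Nme1: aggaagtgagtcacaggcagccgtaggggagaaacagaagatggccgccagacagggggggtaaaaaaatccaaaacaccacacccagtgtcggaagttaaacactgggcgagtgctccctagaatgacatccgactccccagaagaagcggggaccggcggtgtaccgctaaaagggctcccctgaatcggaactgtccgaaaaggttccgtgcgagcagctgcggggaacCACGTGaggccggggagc
Mthfd1: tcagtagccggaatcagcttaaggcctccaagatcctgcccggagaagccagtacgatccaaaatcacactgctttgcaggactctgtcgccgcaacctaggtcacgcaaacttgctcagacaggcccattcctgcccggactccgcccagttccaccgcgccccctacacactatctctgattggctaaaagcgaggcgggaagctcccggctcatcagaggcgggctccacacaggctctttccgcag

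Across the 5 fractions the genes of nucleotide and folate metabolism were ranked by their mean of log2(intensity + 16). The highest mean was in preCFUE for 21 of 31 members, in preGM for 7 and in CLP for 3. No member was highest in preMegE or MkP. By mean intensity, Hprt was instead highest in preGM (967, against 931 in preCFUE). Among genes at least as bright as the dimmest member, 41.8% were highest in preCFUE, 25.2% in preGM, 17.4% in preMegE, 9.21% in CLP and 6.34% in MkP. The lowest mean was in CLP for 19 members, in preMegE for 5, in MkP for 5 and in preCFUE for 2 (Shmt1 and Ctps2). Of the bright genes, 55.4% had their lowest mean in CLP, 22.1% in MkP, 14.4% in preCFUE, 5.29% in preMegE and 2.83% in preGM. Of the 31, 22 differed among the fractions by limma's F test, where 34.9% of all genes and 63.6% of the bright genes passed, so this share is close to that of genes of like brightness. The 9 that did not pass were Paics, Adsl, Ctps2, Prps2, Dck, Nme2, Hprt, Ada and Dut.

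**Figure D1:**
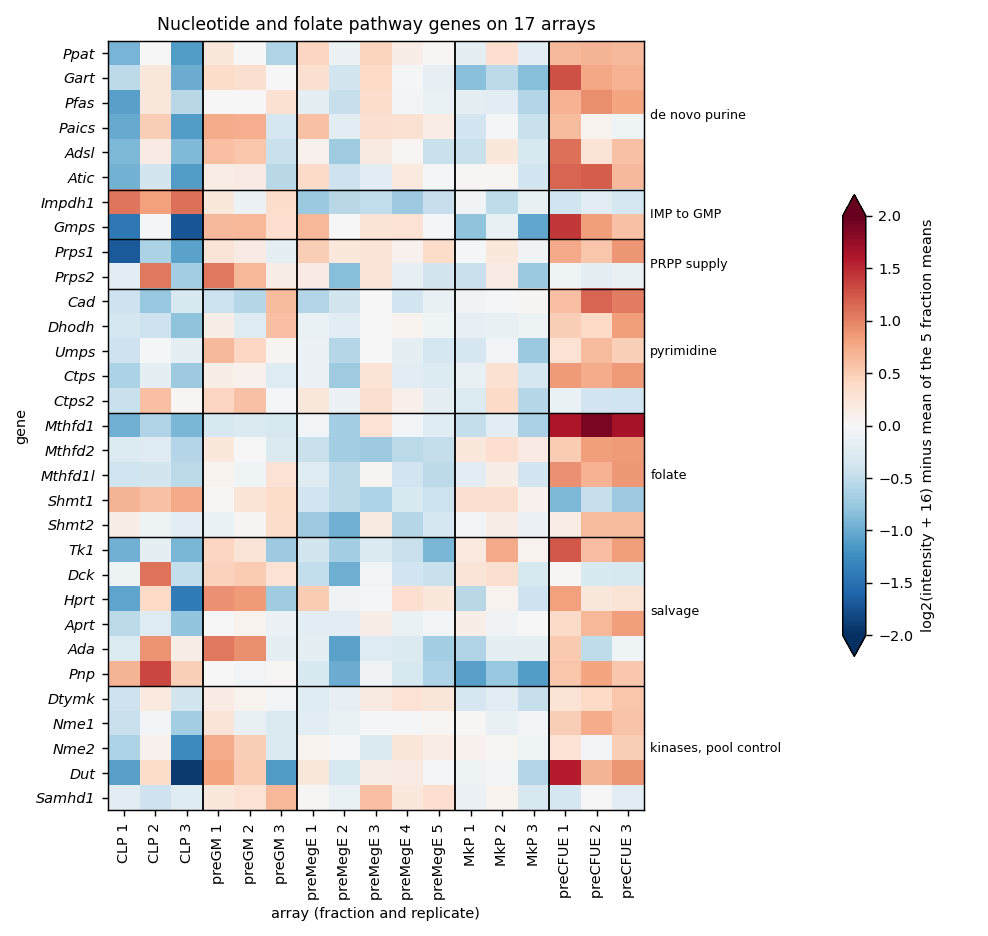
Each row is a gene and each column an array, with rows grouped by role and columns by fraction. Colour gives log2(intensity + 16) minus the mean of the 5 fraction means, on a scale cut at -2 and 2. The 3 preCFUE columns are red for most rows and deepest for Mthfd1, Impdh1 and Shmt1 are red in CLP, and CLP 2 differs from CLP 1 and CLP 3 in many rows.

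The comparison of preCFUE with preMegE follows the step to the erythroid branch, and MkP against preCFUE sets both branches side by side. They share the preCFUE arrays, and comparisons that share a fraction are not independent. In preCFUE over preMegE, 15 of 31 members rose, 0 fell and 16 did not pass, where 4.75% of all genes rose, 3.94% fell, 8.69% passed in either direction and 19.4% of the bright genes passed. The median over the members was 0.71 on the log2 scale, beside 0.084 for the bright genes and 0.0062 for all genes, and 27 of 31 members lay above 0. In MkP against preCFUE, 16 of 31 were lower in MkP, 1 was higher and 14 did not pass, where 10.7% of all genes were lower, 5.51% were higher, 16.2% passed in either direction and 31.3% of the bright genes passed. The median was -0.69 over the members, -0.39 over the bright genes and 0.0052 over all genes. Quantile normalization left 8 members lower and 3 higher in MkP, with a median of -0.31, where 13.6% of all genes passed. It moved the share of higher genes among all calls from 34.0% to 52.4%.

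Of the 5 folate enzymes, 4 rose in preCFUE over preMegE and Shmt1 did not pass. Mthfd1, the cytosolic enzyme that interconverts folate's carbon units for purine and thymidylate synthesis, had the largest rise of the 31 members. Mthfd1 read 491, 637 and 507 on the CLP arrays, 779, 798 and 777 on preGM, 937, 603, 1192, 933 and 823 on preMegE, 696, 842 and 613 on MkP and 3032, 3652 and 3123 on preCFUE. The lowest preCFUE array was above every other array. Mthfd1 rose in preCFUE over preMegE (1.87 ± 0.17, adjusted p = 7.19e-06) and was lower in MkP than in preCFUE (-2.17 ± 0.19, adjusted p = 2.11e-06). All 3 of its probe sets moved alike, at 1.87, 2.03 and 1.72 for the rise. Mthfd2, a mitochondrial dehydrogenase and cyclohydrolase, differed in 4 of the 5 comparisons. Mthfd2 read 91.5, 93.4 and 71.3 on the CLP arrays, 135, 114 and 91.2 on preGM, 79.6, 65.9, 62.7, 73.9 and 78.1 on preMegE, 135, 149.5 and 130.4 on MkP and 169, 216 and 221 on preCFUE. The preMegE arrays were lowest among the myeloid fractions, and none of them overlapped preGM, MkP or preCFUE. Mthfd2 was higher in preCFUE than in preMegE (1.302 ± 0.12, adjusted p = 9.03e-06), higher in MkP than in preMegE (0.81 ± 0.12, adjusted p = 0.000481), lower in MkP than in preCFUE (-0.49 ± 0.14, adjusted p = 0.0238) and lower in preMegE than in preGM (-0.55 ± 0.12, adjusted p = 0.00869). The MkP against preCFUE call for Mthfd2 was lost under quantile normalization (-0.13, adjusted p = 0.676), when its probe sets were averaged (-0.54, adjusted p = 0.0696) and without MkP replicate 1 or 3 or preCFUE replicate 2 or 3.

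Mthfd1l, which releases formate inside mitochondria, was 736 ± 59.6 in preCFUE, 325 ± 61.5 in preMegE and 365 ± 68.96 in MkP. No preCFUE array of Mthfd1l, the lowest at 669, overlapped those of preMegE, the highest at 424, or MkP, the highest at 441. The gene rose in preCFUE (1.15 ± 0.14, adjusted p = 0.000116) and was lower in MkP (-0.99 ± 0.16, adjusted p = 0.000652). Both serine hydroxymethyltransferases take a carbon from serine, Shmt1 in the cytosol and Shmt2 in mitochondria, and their orders over the fractions differed. Shmt1 read 599, 562 and 632 on the CLP arrays, 380.1, 451 and 481 on preGM, 279, 253, 236, 297 and 271 on preMegE, 467, 467 and 394 on MkP and 190.0, 265 and 216 on preCFUE. Shmt1 was lowest in preCFUE and preMegE, whose arrays overlapped (-0.25 ± 0.11, adjusted p = 0.228). It was the 1 member higher in MkP than in preCFUE (0.94 ± 0.12, adjusted p = 9.48e-05), and it was higher in MkP than in preMegE (0.70 ± 0.11, adjusted p = 0.000716) and lower in preMegE than in preGM (-0.68 ± 0.11, adjusted p = 0.000669). The Shmt1 probe sets disagree, and 1 of its 4 passed in the other direction for MkP against preCFUE (-0.75). With the mean over probe sets, Shmt1 in that comparison did not pass (0.21, adjusted p = 0.13). Shmt2 read 500.0, 429 and 393 on the CLP arrays, 419.5, 479 and 595 on preGM, 272, 230.3, 523, 305 and 361 on preMegE, 445, 505 and 425 on MkP and 514, 724 and 721 on preCFUE. Shmt2 rose in preCFUE over preMegE (0.95 ± 0.21, adjusted p = 0.00903) although preMegE replicate 3, at 523, lay above preCFUE replicate 1, at 514. The rise of Shmt2 was lost without preCFUE replicate 2 or 3. MkP against preCFUE did not pass for Shmt2, although all MkP arrays (505 at most) were below all preCFUE arrays.

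**Figure D2:**
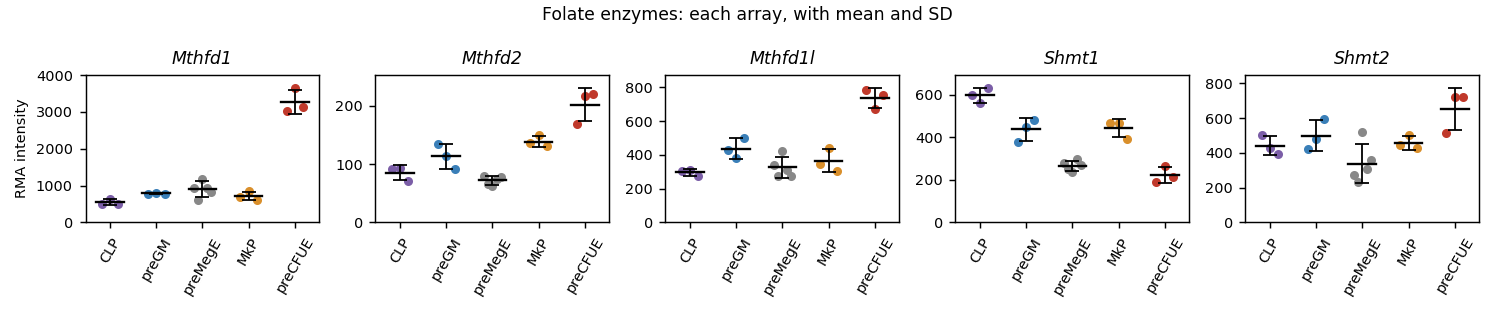
RMA intensity (vertical axis, from 0) of 5 folate genes in the 5 fractions (horizontal axis). Points are single arrays, and bars give the mean and SD (n = 5 for preMegE, n = 3 for the others). Mthfd1 stands at 3269 ± 335 in preCFUE with all other arrays at 1192 or lower, while Shmt1 is lowest in preCFUE, at 224 ± 38.1.

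Of the 6 enzymes that build IMP, 3 rose in preCFUE over preMegE and 3 did not pass. Atic, which closes the purine ring, read 634, 651 and 436 on the preCFUE arrays, 358, 201, 232, 315 and 269 on preMegE and 277, 282 and 205 on MkP, with no overlap between preCFUE and the others. It rose by 1.02 ± 0.23, adjusted p = 0.0108. The second Atic probe set, which was dimmer, stood at -0.086 for the same difference, and with the mean over both the call was lost (0.47, adjusted p = 0.263). Gart, which carries out several steps including folate-dependent ones, read 1191, 832 and 791 on preCFUE, 609, 369, 641, 472 and 429 on preMegE and 262, 331 and 259 on MkP. The preCFUE arrays were highest, the MkP arrays lowest and the 3 sets did not overlap. Gart rose in preCFUE (0.88 ± 0.24, adjusted p = 0.0375) and was lower in MkP than in preCFUE (-1.65 ± 0.27, adjusted p = 0.000872). Pfas, an amidotransferase of the chain, was 553 ± 47.3 in preCFUE, 293 ± 66.2 in preMegE and 244 ± 37.3 in MkP, and differed by 0.90 ± 0.24 and -1.14 ± 0.26 in the same comparisons (adjusted p = 0.0266 and 0.009). Atic was also lower in MkP than in preCFUE (-1.11 ± 0.26, adjusted p = 0.00881), again not with the mean over both probe sets (adjusted p = 0.155). Leaving out 1 array ended the preCFUE over preMegE call of Gart for any preCFUE array, preMegE replicate 2, 4 or 5, preGM replicate 2 and MkP replicate 1, with values from 0.70 to 0.99. It did so for Pfas without any preCFUE array or preMegE replicate 1, 2 or 5, and for Atic without preCFUE replicate 1 or 2. Ppat, the committed first step, was 491 ± 7.39 in preCFUE and 352 ± 63.2 in preMegE without overlap, and did not pass in either comparison. Paics, which follows Gart and Pfas, had a mean of 2638 ± 722 in preCFUE and 2654 ± 524 in preMegE (-0.019 ± 0.35, adjusted p = 0.995), and the sign of that value turned without preMegE replicate 1, 3 or 4 or preCFUE replicate 2 or 3. Adsl, which acts in the chain and again in AMP synthesis, was 288 ± 90.8 in preCFUE and 155 ± 42.6 in preMegE. It did not pass in either comparison, and its preCFUE arrays overlapped neither preMegE nor MkP. Under quantile normalization Adsl passed in preCFUE over preMegE (0.75, adjusted p = 0.0449).

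GMP synthesis from IMP uses Impdh and Gmps. Gmps read 804, 534 and 444 on preCFUE, 159, 259.8 and 133 on MkP and 468, 292, 355, 358 and 281 on preMegE. The MkP arrays lay below all preCFUE and preMegE arrays. Gmps was lower in MkP than in preCFUE (-1.62 ± 0.36, adjusted p = 0.00775), a call that was lost with the mean over its 3 probe sets (-0.32, adjusted p = 0.385). Prps1, which makes PRPP, was 448 ± 52.3 in preCFUE and 272 ± 30.7 in MkP without overlap (-0.69 ± 0.20, adjusted p = 0.0342). Its relative Prps2 was 574 ± 19.6 and 515 ± 177, and its arrays overlapped in all 5 comparisons.

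Of the 5 pyrimidine enzymes, 4 rose in preCFUE over preMegE and Ctps2 did not pass. Cad, the fused enzyme of the first steps, read 585, 867 and 783 on preCFUE, 246, 292, 383, 286 and 339 on preMegE and 361, 368 and 396 on MkP. Every preCFUE array was above those of both other fractions. Cad rose in preCFUE (1.22 ± 0.23, adjusted p = 0.00333) and was lower in MkP (-0.94 ± 0.26, adjusted p = 0.0223). Ctps, a CTP synthase, read 908, 842 and 910.4 on preCFUE against 459, 299, 607, 423 and 409.5 on preMegE and 448, 621 and 389 on MkP, again without overlap. Its differences were 1.02 ± 0.20, adjusted p = 0.00405 over preMegE and -0.87 ± 0.22, adjusted p = 0.0153 for MkP against preCFUE. Umps, which completes UMP, was 1053 ± 123 in preCFUE, 643 ± 100.2 in preMegE and 587 ± 139.8 in MkP, and Dhodh, the mitochondrial step, was 208 ± 37.3, 125 ± 11.5 and 119 ± 3.24. Both rose over preMegE (Umps 0.71 ± 0.17, Dhodh 0.65 ± 0.16) and were lower in MkP than in preCFUE (Umps -0.85 ± 0.19, Dhodh -0.71 ± 0.18). Adjusted p-values for these 4 values ran from 0.00841 to 0.0206. The fifth, Ctps2, a second CTP synthase, had its lowest mean in preCFUE (312 ± 34.2, a difference of -0.37 ± 0.24, adjusted p = 0.521 from preMegE) and did not pass in any of the 5 comparisons. After quantile normalization Ctps2 passed in MkP against preCFUE, as higher in MkP (0.55, adjusted p = 0.0463). Under quantile normalization the MkP against preCFUE calls of Cad (adjusted p = 0.359), Dhodh (0.333), Umps (0.052) and Prps1 (0.369) were lost. Single arrays decided some of these calls. Over preMegE, Dhodh was lost without preCFUE replicate 1 or 3 and under quantile normalization (adjusted p = 0.0947), and Umps without replicate 2 or 3 and when its probe sets were averaged (adjusted p = 0.0675). In MkP against preCFUE, Ctps and Prps1 were lost without MkP replicate 1 or 3 or preCFUE replicate 1 or 3, Cad without any MkP array or preCFUE replicate 2 or 3, and Dhodh without preCFUE replicate 3.

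**Figure D3:**
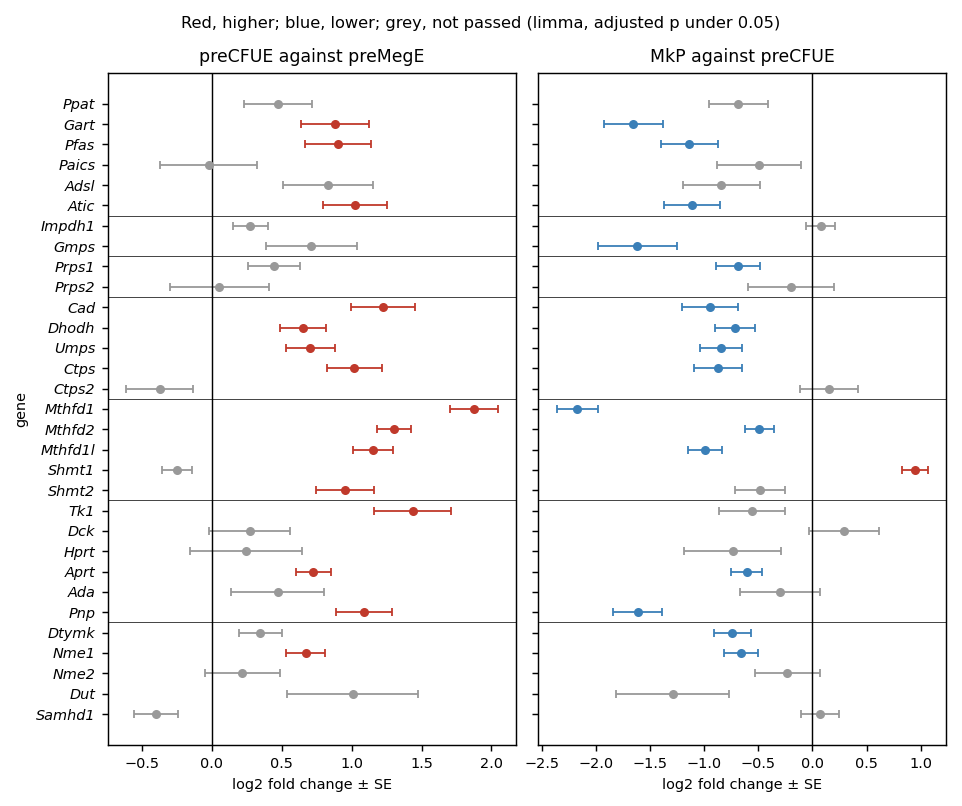
Log2 fold change ± SE (horizontal axis) of each gene (vertical axis, grouped by role) for preCFUE against preMegE and for MkP against preCFUE, from limma. Red marks genes higher in the first-named fraction, blue lower, and grey those that did not pass. On the left 15 genes are red and 0 blue, and on the right 16 are blue with Shmt1 the 1 red point.

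Salvage genes divided into those that moved and those that did not pass. Tk1, the thymidine kinase made in S phase, read 359, 225 and 266 on preCFUE, 107, 82.8, 114, 99.7 and 67.7 on preMegE and 164, 250.2 and 149.7 on MkP. All preCFUE and MkP arrays were above all preMegE arrays. Tk1 rose in preCFUE over preMegE (1.44 ± 0.27, adjusted p = 0.00352), while MkP against preMegE was at 0.88 ± 0.27, adjusted p = 0.0568. Pnp, which splits purine nucleosides, read 2148, 2548 and 2133 on preCFUE, 1177, 729, 1397, 1167 and 945 on preMegE and 685, 857 and 666 on MkP. The preCFUE arrays stood above all of these others. It rose in preCFUE (1.09 ± 0.20, adjusted p = 0.003) and was lower in MkP (-1.61 ± 0.23, adjusted p = 0.00021). Aprt, which recycles adenine, was 1189.9 ± 187 in preCFUE, 709.8 ± 75.01 in preMegE and 770.3 ± 57.4 in MkP (0.73 ± 0.12, adjusted p = 0.00176 over preMegE and -0.61 ± 0.14, adjusted p = 0.00876 for MkP against preCFUE). The second of these Aprt calls was lost under quantile normalization (adjusted p = 0.367). Hprt, which recycles hypoxanthine and guanine, spread widely within fractions, from 787 to 1197 in preCFUE and from 401 to 1272 in preGM. It did not pass in any comparison, nor did Dck, the deoxycytidine kinase, and Ada, the adenosine deaminase. Quantile normalization gave Dck calls in MkP against preMegE (0.85, adjusted p = 0.00568) and MkP against preCFUE (0.69, adjusted p = 0.0319). Dck and Ada also gained calls with it in preMegE against preGM, given below.

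Among kinases and pool control genes, Nme1, a nucleoside diphosphate kinase, was 2287 ± 204 in preCFUE, 1429.5 ± 106 in preMegE and 1442 ± 86.3 in MkP, with differences of 0.67 ± 0.14, adjusted p = 0.00621 and -0.66 ± 0.15, adjusted p = 0.01. Nme2, its close relative, was 4773 ± 901, 4083 ± 560.5 and 4016 ± 259, and did not pass in preCFUE over preMegE (0.22 ± 0.27, adjusted p = 0.865) or MkP against preCFUE (-0.23 ± 0.30, adjusted p = 0.676), where the sign turned under quantile normalization (0.052). The sequences of Nme1 and Nme2 are alike, so their probe sets may share signal. Dtymk, which phosphorylates thymidylate, was 1851 ± 192 in preCFUE and 1101 ± 97.95 in MkP (-0.74 ± 0.17, adjusted p = 0.00857). Under quantile normalization that Dtymk call (adjusted p = 0.0582) and the Nme1 one (0.164) were lost. Dut, which keeps uracil out of DNA, read 2481, 1321 and 1524 on preCFUE and 968, 655, 895, 925 and 808 on preMegE. These did not overlap, yet the difference of 1.01 ± 0.47, adjusted p = 0.264, did not pass. Samhd1, which breaks down deoxynucleotides, was 234 ± 29.3 in preCFUE and 316 ± 67.1 in preMegE and did not pass. Paics had the second value named in MkP against preCFUE without a call, at -0.49 ± 0.39, adjusted p = 0.455.

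**Figure D4:**
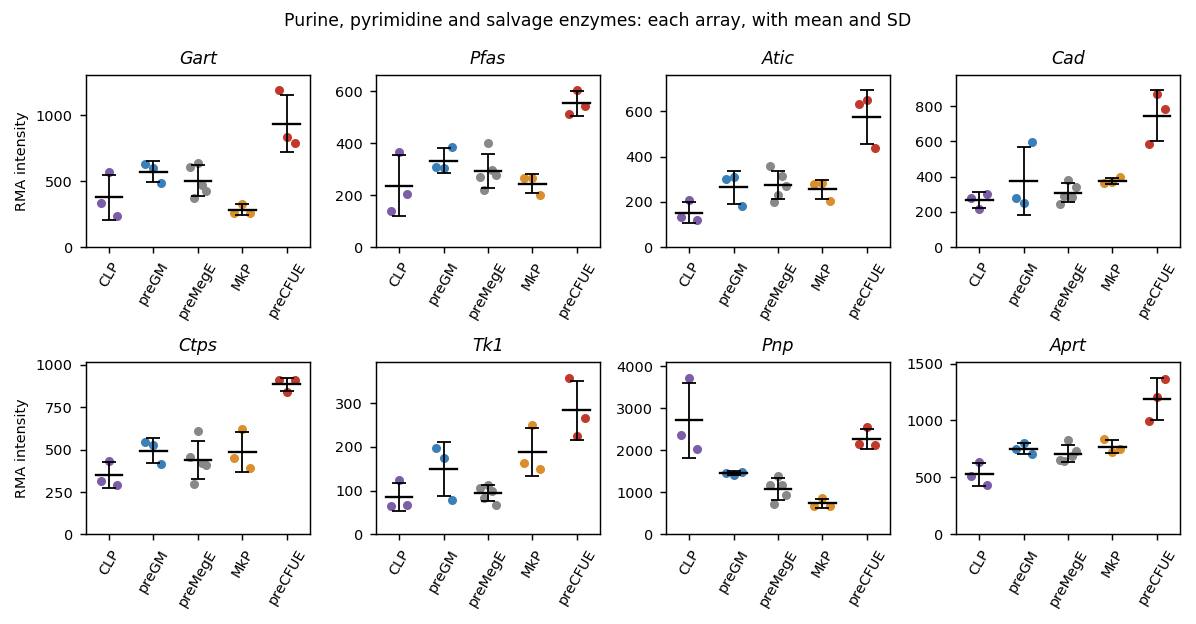
RMA intensity (vertical axes, from 0) of 8 purine, pyrimidine and salvage genes in the 5 fractions. Points are single arrays, and bars give the mean and SD (n = 5 for preMegE, n = 3 for the others). The preCFUE mean is above the preMegE and MkP means for all 8 genes, and Pnp is also high in CLP (2714 ± 900.5).

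Cell cycle genes were counted in the same comparisons. Of 19 S phase genes, 7 rose in preCFUE over preMegE, 0 fell and 12 did not pass (median 0.73), and in MkP against preCFUE 4 were lower and 15 did not pass (median -0.55). Summed S phase intensities were 31330 to 33440 in preCFUE, 16340 to 23060 in preMegE and 24240 to 25890 in MkP. Of 18 G2 and M phase genes, 16 rose in preCFUE over preMegE, whereas 0 of 18 passed in MkP against preCFUE with limma (1 at an unadjusted p under 0.05). The part of the cycle genes in the members' differences was not tested. Among the Myc genes, Myc was 658 in preCFUE and 659.9 in preMegE on average (0.025, adjusted p = 0.991) and 229.6 in MkP, and Mycn was 24.7, 557 and 1046 in these fractions, and its preCFUE over preMegE difference was a fall (-3.74, adjusted p = 7.46e-07).

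The MkP against preMegE comparison follows the other branch, and 2 of the 31 members passed in it. Mthfd2 and Shmt1, given above, rose in MkP, 0 members fell and 29 did not pass, where 10.3% of all genes passed in either direction (3.98% rose, 6.37% fell) and 19.4% of the bright genes passed. The median over the members was -0.091, beside -0.29 for the bright genes. Neither Nme2 (-0.014 ± 0.27, adjusted p = 0.983) nor Paics (-0.51 ± 0.35, adjusted p = 0.399) passed, and Nme2 changed sign under quantile normalization (0.19) and without preMegE replicate 4 or 5 or MkP replicate 3. Gart (-0.77, adjusted p = 0.061) and Gmps (-0.90, adjusted p = 0.0979) did not pass, although every MkP array read below every preMegE array. With quantile normalization 8 members rose and 0 fell, where 10.7% of all genes passed. The members' median became 0.19, and the share of higher genes among all calls moved from 38.5% to 55.5%. Without CLP replicate 2, 3 members rose and 2 fell (13.2% of all genes passed), and without preMegE replicate 2, 2 rose and 2 fell (12.6%). Of the 18 G2 and M phase genes, 13 were higher in MkP and 5 did not pass (median 0.91), and of the 19 S phase genes 4 were higher and 15 did not pass (median 0.26).

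Between preMegE and preGM, whose gates differ in Slamf1, 4 members were lower in preMegE, 0 were higher and 27 did not pass, where 5.88% of all genes were lower, 2.81% were higher, 8.69% passed in either direction and 14.4% of the bright genes passed. The 4 were Impdh1, Shmt1, Mthfd2 and Umps. Impdh1 read 296, 247 and 304 on the CLP arrays, 156, 121 and 174 on preGM, 72.4, 85.2, 90.1, 74.1 and 92.2 on preMegE, 125, 88.8 and 118 on MkP and 96.7, 113 and 101 on preCFUE. Impdh1, which turns IMP toward GMP, was thus highest in CLP, next in preGM and lowest in preMegE, with no overlap between these 3 fractions. It differed by -0.74 ± 0.12, adjusted p = 0.000899, for preMegE against preGM. Umps was 993 ± 205 in preGM and 643 ± 100.2 in preMegE (-0.61 ± 0.17, adjusted p = 0.0415). Nme2 (-0.29 ± 0.27, adjusted p = 0.777) and Paics (-0.15 ± 0.35, adjusted p = 0.939) did not pass, while Paics changed sign without preGM replicate 1 (0.033) or 2 (0.027). Under quantile normalization Impdh1 (adjusted p = 0.0869), Shmt1 (0.0782) and Mthfd2 (0.0717) lost their calls. Dck (-0.81, adjusted p = 0.00705) and Ada (-0.98, adjusted p = 0.0214) gained calls as lower in preMegE. With Umps, 3 members then passed, where 9.12% of all genes did. Without preGM replicate 1 the number called fell to 2, where 6.95% of all genes passed, and the call of Mthfd2 was lost. The call of Umps was lost in 13 of 27 alternatives, including without CLP replicate 3, preGM replicate 1 or 2, preMegE replicate 1, 2, 4 or 5, MkP replicate 1 or preCFUE replicate 3. Of the 19 S phase genes, 7 were lower in preMegE and 12 did not pass, and 0 of the 18 G2 and M phase genes passed with limma (3 at an unadjusted p under 0.05).

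CLP against preGM sets the lymphoid fraction beside the granulocyte and monocyte one. Impdh1, Pnp and Shmt1 were higher in CLP, 7 members were lower and 21 did not pass, where 18.3% of all genes (5.07% higher, 13.3% lower) and 32.8% of the bright genes passed, so the share of members was near that of genes of like brightness. The median was -0.55 over the members and -0.54 over the bright genes. Impdh1 differed by 0.85 ± 0.14, adjusted p = 0.00117. Pnp read 2361, 3737 and 2043 on CLP and 1469, 1411 and 1494 on preGM without overlap (0.84 ± 0.23, adjusted p = 0.0227). Shmt1 was at 0.44 ± 0.12, adjusted p = 0.0249, but 1 of its other probe sets passed in the opposite direction (-0.74), and with the mean over probe sets the sign turned (-0.19). Gmps read 97.9, 281 and 77.6 on CLP against 462, 469 and 369 on preGM (-1.61 ± 0.36, adjusted p = 0.0103). Prps1 read 71.4, 163 and 117 against 317, 297 and 231 (-1.21 ± 0.20, adjusted p = 0.00161). In both genes every CLP array lay below every preGM array.

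Lower members of smaller size in CLP were Samhd1 (-0.68 ± 0.17), Dhodh (-0.67 ± 0.18), Mthfd1l (-0.53 ± 0.16), Aprt (-0.51 ± 0.14) and Nme2 (-0.91 ± 0.30), with adjusted p from limma between 0.0184 and 0.0485. Nme2 was 2819.9 ± 1311 in CLP and 5167 ± 1739 in preGM with overlap, and its call was lost in 19 of 27 alternatives. Paics (-0.92 ± 0.39, adjusted p = 0.106) and Nme1 (-0.34 ± 0.15, adjusted p = 0.13) did not pass, while Nme1 changed sign under quantile normalization (0.018). Counts here moved with single arrays. Without CLP replicate 2, 23 members were lower, 3 higher and 5 did not pass, and 33.2% of all genes passed. The number called was 6 without CLP replicate 1, 4 without CLP replicate 3, 4 without preGM replicate 1, 6 without preGM replicate 2 and 16 without preGM replicate 3. The share of all genes that passed moved too, to 9.36%, 7.97%, 7.90%, 7.84% and 22.5% in the same order. Impdh1, Prps1 and Samhd1 kept their calls without any single array, Gmps lost its call without CLP replicate 3, Pnp without preGM replicate 1 or 2, Shmt1 and Aprt without CLP replicate 1 or 3 or preGM replicate 1 or 2, Dhodh without CLP replicate 3 or preGM replicate 1 or 3, and Mthfd1l without CLP replicate 1 or 3 or preGM replicate 1 or 3. In a fit of only these 6 arrays 0 members passed with limma (13 at an unadjusted p under 0.05), and 3.06% of all genes did. With the Gapdh ratio as a covariate 6 members and 9.93% of all genes passed. Quantile normalization left 3 higher and 2 lower, where 12.6% of all genes passed. Samhd1 (adjusted p = 0.533), Dhodh (0.404), Mthfd1l (0.794), Aprt (0.712) and Nme2 (0.142) lost their calls under it. Samhd1 also lost its call when its probe sets were averaged (-0.25, adjusted p = 0.106). The share of higher genes among all calls, 27.7%, became 43.2% under quantile normalization and 15.9% under median centring. Of 19 S phase genes, 5 were lower in CLP and 14 did not pass (median -0.50), and of 18 G2 and M phase genes 10 were lower and 8 did not pass (median -0.72).

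**Figure D5:**
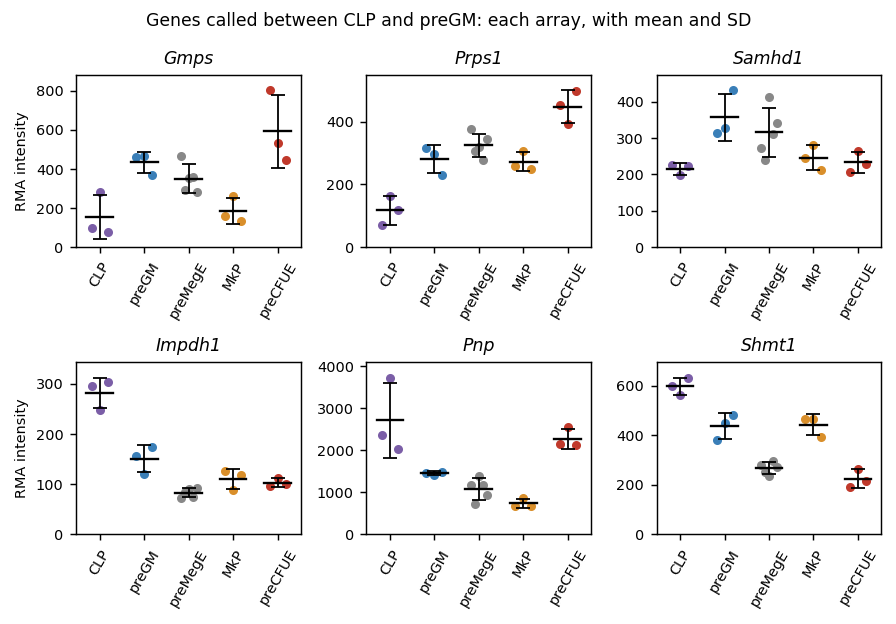
RMA intensity (vertical axes, from 0) of 6 genes called between CLP and preGM, shown in all 5 fractions. Points are single arrays, and bars give the mean and SD (n = 5 for preMegE, n = 3 for the others). Gmps, Prps1 and Samhd1 are lower in CLP than in preGM, and Impdh1 is higher in CLP than in every other fraction.

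Other genes of the same pathways were listed beside the members (82 symbols, of which 68 were measured). In preCFUE over preMegE 11 rose, 0 fell and 57 did not pass, where 4.75% of all genes rose and 3.94% fell. The rises were led by Rrm2, a ribonucleotide reductase subunit (432 to 1433 in mean intensity, log2 fold change 1.70), and Ampd3, an AMP deaminase of red cells (69.8 to 235, 1.57). Rrm2 and Rrm1, both of this list, are also among the S phase genes counted above. In MkP against preCFUE 15 were lower, 3 higher and 50 did not pass, where 10.7% of all genes were lower and 5.51% higher. Ampd3 (-2.62) and the guanylate kinase gene Guk1 (-1.73) were the largest falls, and Gda, a guanine deaminase (1.295), and Ampd2 (1.01) the largest rises. In MkP against preMegE 5 rose and 5 fell, beside 3.98% and 6.37% of all genes. Gda (1.95) and Rrm2 (1.62) were higher and Cmpk2 (-1.64) and Mthfd2l (-1.07) lower. In preMegE against preGM 5 were higher and 6 lower, beside 2.81% and 5.88% of all genes. Nt5c3 (1.504) and Mthfd2l (1.03) were higher, and Adssl1 (-2.25) and Ak4 (-1.82) lower. In CLP against preGM 5 were higher and 14 lower, beside 5.07% and 13.3% of all genes. Nt5e (0.53) was higher and Cmpk2 (-1.94) and Ggh (-1.44) lower. Folr1 was the other gene of the naming rule, but its mean of 19.3 in CLP and 10.8 in preGM is dim on arrays where 47.3% of values were under 16, so its fold is not given. Adjusted p-values of these named genes were at most 0.0497 with limma.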

How the data were processed

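Expression was measured on 17 Affymetrix 3-prime arrays. The deposited values are linear RMA intensities of single probe sets, with RMA named in the submitters' processing notes and the series' design text, and its version not given in the sources used here. Per the labels' protocols, sorted cells were lysed and RNA was isolated on columns. The design text adds amplification in 2 rounds, which can shorten RNA toward its 3-prime end, and scaling of chips to a common median. No counts exist, so the number of arrays limits precision.

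Of 45101 probe sets, 34958 had 1 symbol and 932 several (not named). The highest mean of log2(intensity + 16) chose the probe set of each gene. Limma 3.58.1 under R 4.3.3 fitted all arrays in 1 model with a term per fraction (12 residual degrees of freedom), checked on simulated data. The members and lists were chosen with earlier results of these data known. Members past the test, and the 2 brightest that did not pass, were named with fold changes in each comparison. Some others are given with their values. Of other pathway genes the 2 largest rises and falls were named. Alternatives were other pseudocounts (1 and 64), normalizations, filters, array weights, covariates, fits and left-out arrays. Free-text descriptions name another gate for all arrays and were not used.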

Additional observations from a re-analysis of the deposited data

How the results depend on the processing

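Apart from leaving out arrays, 65 member counts were recomputed, and 46 stayed within 1.5 times the reported one. The other 19 follow. With only probe sets whose SD over mean exceeded 0.5, 8 members were tested, and 2 passed in preMegE against preGM, 4 in preCFUE against preMegE, 5 in MkP against preCFUE, 5 in CLP against preGM and 8 by the F test, where 51.4%, 36.3%, 54.8%, 54.7% and 93.6% of all genes tested passed. With array weights 13 passed in preMegE against preGM, 8 in MkP against preMegE and 21 in CLP against preGM. Of all genes, 20.6%, 19.7% and 35.3% passed in the same order. Quantile normalization gave 8 in MkP against preMegE, 11 in MkP against preCFUE (3 higher, 8 lower, with 52.4% in place of 34.0% of all calls higher) and 5 in CLP against preGM. The shares of all genes that passed were 10.7%, 13.6% and 12.6%. MkP against preMegE gave 4 with a pseudocount of 1, 4 with genes under the 40th percentile removed, 5 with the Gapdh ratio as covariate and 5 when its fractions were fitted alone. Of all genes tested, 11.1%, 18.1%, 12.3% and 13.9% passed in the same order. CLP against preGM gave 6 with the Gapdh ratio and 0 when its fractions were fitted alone (limma, 13 at an unadjusted p under 0.05). These settings passed 9.93% and 3.06% of all genes. The cause was not tested.

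Over 30 pairs of same-numbered arrays, deviations from the fraction means correlated from -0.54 to 0.51, above 0.1 in 11. Pairs of arrays with different numbers were not scored, so these values cannot decide whether the numbers pair the samples. With the replicate number as a block, 9 members passed in preCFUE against preMegE (15 without) and 5 in CLP against preGM (10 without). In preMegE against preGM, MkP against preMegE and MkP against preCFUE 3, 2 and 15 passed, and 20 passed by the F test. Of all genes, 4.98%, 9.77%, 5.86%, 5.32%, 11.7% and 25% passed in the same order. Nme2 in MkP against preMegE was at 0.099 with the block. The calls not made with it were Gart, Pfas, Dhodh, Umps, Ctps and Shmt2 in preCFUE against preMegE, Ctps and Prps1 in MkP against preCFUE, Umps in preMegE against preGM, and Dhodh, Mthfd1l, Shmt1, Nme2, Aprt and Pnp in CLP against preGM.

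Leaving out each array in turn gave 2 to 6 members in preMegE against preGM, 2 to 5 in MkP against preMegE, 10 to 15 in preCFUE against preMegE, 12 to 19 in MkP against preCFUE, 4 to 26 in CLP against preGM and 20 to 28 by the F test. In the same order, the share of all genes that passed ran from 6.69% to 9.64%, 6.51% to 13.2% and 5.8% to 10.3%. It then ran from 9.79% to 19.2%, 7.84% to 33.2% and 29.7% to 42.9%. Calls over all genes moved by over 1.5 times with array weights, to 3751 for preMegE against preGM (1581 in the report's fit), 3591 for MkP against preMegE (1882), 3017 for preCFUE against preMegE (1581), 4775 for MkP against preCFUE (2949), 6430 for CLP against preGM (3337) and 9748 by the F test (6345). They did so with the SD over mean filter, which tests fewer genes, to 898 for MkP against preMegE, 770 for preCFUE against preMegE, 1164 for MkP against preCFUE, 1161 for CLP against preGM and 1989 by the F test. With the replicate block they became 968 for MkP against preMegE, 906 for preCFUE against preMegE and 1778 for CLP against preGM, which gave 1806 with the Gapdh ratio and 557 with its fractions fitted alone.

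Of 48 called differences of single members, 15 kept direction and call in every alternative that tested them. The sign of 1, Shmt1 in CLP against preGM, turned with the mean over probe sets (-0.19). Among uncalled ones, Paics in preMegE against preGM became 0.050 with the Gapdh ratio and ran from -0.51 to 0.033 as arrays were left out. Nme2 in MkP against preMegE became 0.19 under quantile normalization and 0.052 with the Gapdh ratio, and ran from -0.094 to 0.041 as arrays were left out. Paics in preCFUE against preMegE ran from -0.23 to 0.13. Under quantile normalization Nme2 in MkP against preCFUE became 0.052 and Nme1 in CLP against preGM 0.018.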

Other observations

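Samhd1, which limits deoxynucleotide pools, was represented by 5 probe sets that did not move together. For CLP against preGM the probe set used here gave -0.68 and the next brightest -1.40, while the 2 after it gave 0.46 and 0.30. Over the 17 arrays, which hold 5 fractions, these 3 correlated with the one used at 0.45, -0.17 and -0.17. For Gmps the brightest probe set gave 0.71 for preCFUE against preMegE, and the 2 dimmer ones gave -0.31 and -0.64.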
